A study of Mus musculus with 23 samples.

Results

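The 10 genes described here encode the integrin α and β subunits of the intestinal epithelium, namely Itga2, Itga3, Itga5, Itga6, Itgav, Itgb1, Itgb4, Itgb5, Itgb6 and Itgb8. They were chosen by name, with no threshold on a measured value, from the 22350 genes counted in RNA-seq, the 22230 genes counted in Ribo-seq of organoids and the 22314 genes counted in Ribo-seq of mice. The study asked how loss of Rptor, which encodes the mTORC1 component Raptor, changes mRNA and translation in intestinal stem cells. RNA-seq reads mRNA fragments, and Ribo-seq reads the short mRNA fragments that ribosomes protect, called footprints. The series holds 23 libraries of C57BL/6 mouse material.

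WT organoids carried VillinCre.ERT2.RPL22.HA, in which the epithelial Villin promoter drives an inducible Cre and the ribosomal protein RPL22 bears an HA tag. They gave 4 RNA-seq libraries, made as 2 technical libraries from each of 2 organoid lines. The Rptor fl/fl organoids carried VillinCre.ERT2.Rptor.fl/fl and gave 4 RNA-seq libraries from 2 lines in the same way. Their 3 Ribo-seq libraries were labelled VillinCre.ERT2.Rptor.fl/fl.RPL22.HA, so that the tag stands in the label of the Ribo-seq and not of the RNA-seq. Stem cell enriched (SCe) organoids had the WT genotype and were grown with 10 µM CHIR 99021, an inhibitor of GSK3, and 1.5 mM valproic acid, an inhibitor of histone deacetylases. They gave 3 RNA-seq and 3 Ribo-seq libraries. In vivo footprints came from small intestine of 3 WT mice with Lgr5Cre.ERT2.RPL22.HA and 3 mice with Lgr5Cre.ERT2.Rptor.fl/fl.RPL22.HA, aged 8 to 12 weeks and taken 24 h after tamoxifen, where Cre is driven by the stem cell gene Lgr5 and tagged ribosomes were pulled down through HA from lysates of the tissue. Apart from SCe, the labels call all organoids and mice untreated, whereas the methods of the study describe induction with tamoxifen.

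Integrins are heterodimers of an α and a β chain that anchor cells to the extracellular matrix and pass signals through the short cytoplasmic ends of their chains. In intestinal epithelium, α6β4 joins the basement membrane laminins to keratin filaments in hemidesmosome-type junctions, α3β1 and α6β1 bind laminins, α2β1 binds collagens, and α5β1 binds fibronectin. The αv chain pairs with β5, β6 and β8, and the dimers αvβ6 and αvβ8 bind the latent form of TGFβ and take part in its activation.

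The ends of the β chains are shown first, since they bear on the transcript shares given further on. Each line below gives the last 48 codons (144 coding bases, 5′ to 3′, GENCODE vM21 on mm10) with the codons of each NPxY motif in capitals. The NPxY motif is a docking site of adaptors such as talin, which switches integrins on. Docking sites of other sequence were not marked or counted. The interval for each includes the intron between 2 coding exons and the stop codon. Itgb1-201 lies at chr8:128726106-128732088 on the + strand, Itgb5-202 at chr16:33947831-33948752 on the + strand, Itgb6-202 at chr2:60600485-60605187 on the - strand and Itgb8-201 at chr12:119163117-119163360 on the - strand.
Itgb1-201: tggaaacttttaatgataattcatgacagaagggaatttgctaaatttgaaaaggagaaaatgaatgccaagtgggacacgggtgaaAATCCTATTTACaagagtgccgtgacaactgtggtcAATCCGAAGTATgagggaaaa
Itgb5-202: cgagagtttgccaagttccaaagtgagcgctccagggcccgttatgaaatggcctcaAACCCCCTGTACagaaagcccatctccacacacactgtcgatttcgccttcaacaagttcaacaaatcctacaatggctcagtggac
Itgb6-202: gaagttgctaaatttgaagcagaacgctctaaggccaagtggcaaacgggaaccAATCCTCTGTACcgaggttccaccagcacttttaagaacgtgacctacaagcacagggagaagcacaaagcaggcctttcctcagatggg
Itgb8-201: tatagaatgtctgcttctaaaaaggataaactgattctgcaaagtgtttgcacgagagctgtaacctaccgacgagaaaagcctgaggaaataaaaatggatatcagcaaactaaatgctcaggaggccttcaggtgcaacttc
The end of Itgb1 held 2 NPxY motifs, those of Itgb5 and Itgb6 held 1 each, and that of Itgb8 held none. The 1753 codons of Itgb4-202 also held none, and β4 is known for a long cytoplasmic part that binds plectin.

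Itga6 has alternative coding ends, known as A and B, which replace the cytoplasmic tail of α6. Each is given from the codons of the conserved membrane-proximal motif of α chains, in capitals, to the last codon. Itga6-201 carries end A, at chr2:71853537-71853641, and Itga6-202 carries end B, at chr2:71855857-71856015, both on the + strand, and each interval runs from the motif to the stop codon.
Itga6-201: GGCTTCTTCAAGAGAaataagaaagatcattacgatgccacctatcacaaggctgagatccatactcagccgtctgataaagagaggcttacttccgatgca
Itga6-202: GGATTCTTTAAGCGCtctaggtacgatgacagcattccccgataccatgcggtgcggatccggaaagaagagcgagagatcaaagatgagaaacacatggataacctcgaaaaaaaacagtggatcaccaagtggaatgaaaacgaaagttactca
End A held 29 codons after the motif and end B 47. Itga6-207, a transcript with a shorter coding sequence of 666 codons, had the same end as Itga6-201. In Itga3 the transcripts Itga3-201 and Itga3-202 shared 1 end, with 30 codons after the motif.

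Between 23802944 and 67598878 reads were assigned to coding transcripts in each RNA-seq library, 1106178 to 8257457 in each organoid Ribo-seq library and 772077 to 8238388 in each mouse. Rptor mRNA was 51.5 and 47.9 CPM (counts scaled to library size) in WT lines and 14.8 and 15.5 in Rptor fl/fl lines, a log2 change of -1.71 ± 0.08 (SE, adjusted p = 0.00516). In Ribo-seq the targeted gene did not settle the labels. Rptor footprints were 16 to 18.7 CPM in the Rptor-labelled organoid libraries and 15.2 to 41.9 CPM in SCe organoids (adjusted p = 0.318), and 32.6 to 36.9 CPM in the Rptor-labelled mice and 39.7 to 44.7 CPM in WT mice (adjusted p = 0.15). Lgr5, the stem cell receptor, was at 44.4 and 73.9 CPM in Rptor fl/fl and 219 to 337 CPM in SCe RNA-seq, and at 206 to 212 and 378 to 640 CPM in the respective footprints. In what follows Ribo-seq libraries and mice whose label reads Rptor fl/fl are therefore called Rptor-labelled.

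Cell type markers were summed per library to see what each sample held. The 8 epithelial markers were all detected in every group, with sums of 4340 CPM or more. Immune markers summed to at most 0.963 CPM in organoid RNA-seq and to at most 4.99 CPM in organoid footprints. The 7 markers of stroma and endothelium summed to 70.1 to 115 CPM in SCe RNA-seq and 143 to 810 CPM in SCe footprints, against at most 3.71 CPM in WT RNA-seq, 3.34 CPM in Rptor fl/fl RNA-seq and 9.8 CPM in footprints labelled Rptor fl/fl. Col3a1 was at 0 in both SCe data types, and the endothelial markers Kdr and Pecam1 were also at 0 in SCe footprints. In mice the stem cell markers summed to 319 to 537 CPM and the immune markers, all 6 detected, to 7261 to 8833 CPM. The first SCe RNA-seq library stood apart from the other two, with enterocyte markers summing to 245 CPM against 6063 and 7091 CPM, and results against SCe RNA-seq are therefore also given without it.

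Levels of different subunits can be compared only per length. In RNA-seq the deposited TPM values, which are scaled to effective transcript length, placed Itgb1 highest and Itgb8 lowest in all 3 groups of organoids. In WT organoids Itgb1, the shared partner of most α chains, stood at 107 ± 0.995 TPM (SD, n = 2), followed by Itga6 at 89.2 ± 2.09, Itga3 at 35.5 ± 2.43, Itgb4 at 34.3 ± 2.16 and Itga2 at 14 ± 0.704. The αv group was lower, with Itgb5 at 10.1 ± 0.805, Itgav at 8.06 ± 0.975 and Itgb6 at 6.37 ± 0.263 TPM. Itga5 had 0.841 ± 0.212 TPM and Itgb8 0.141 ± 0.0747 TPM. Among neighbours in this order, only Itga3 and Itgb4 overlapped between the lines.

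The order changed in Rptor fl/fl organoids, where Itgb4 stood at 87.4 ± 15.1 TPM (n = 2) and overlapped Itga6 at 78.7 ± 5.52. In SCe organoids Itgb4 was at 24.3 ± 7.56 TPM (n = 3), and 7 of the 9 neighbouring pairs overlapped. Itgb8 reached 1.62 ± 0.705 TPM there and overlapped Itga5 at 1.67 ± 0.423. Footprints were ordered by CPM per kilobase of the longest coding entry, because the effective lengths in these files fall to 13.3 bases for the shortest Itgb1 entry and 13.9 bases for the shortest Itgav entry in organoids, and to 25.2 bases for Itgav in mice. On that scale Itgb1 led in all 4 footprint groups, from 89.5 ± 2.47 in WT mice to 146 ± 41.7 in SCe organoids (n = 3 each), and Itgb8 was last. Itga3 was second in both groups of mice, at 57.7 ± 3.92 in WT, while Itga6 was second in both groups of organoids. The scale is unlike between mice and organoids, since 59.39% of mouse entries also had the length of the 5′ leader, the stretch before the coding sequence.

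**Figure D1:**
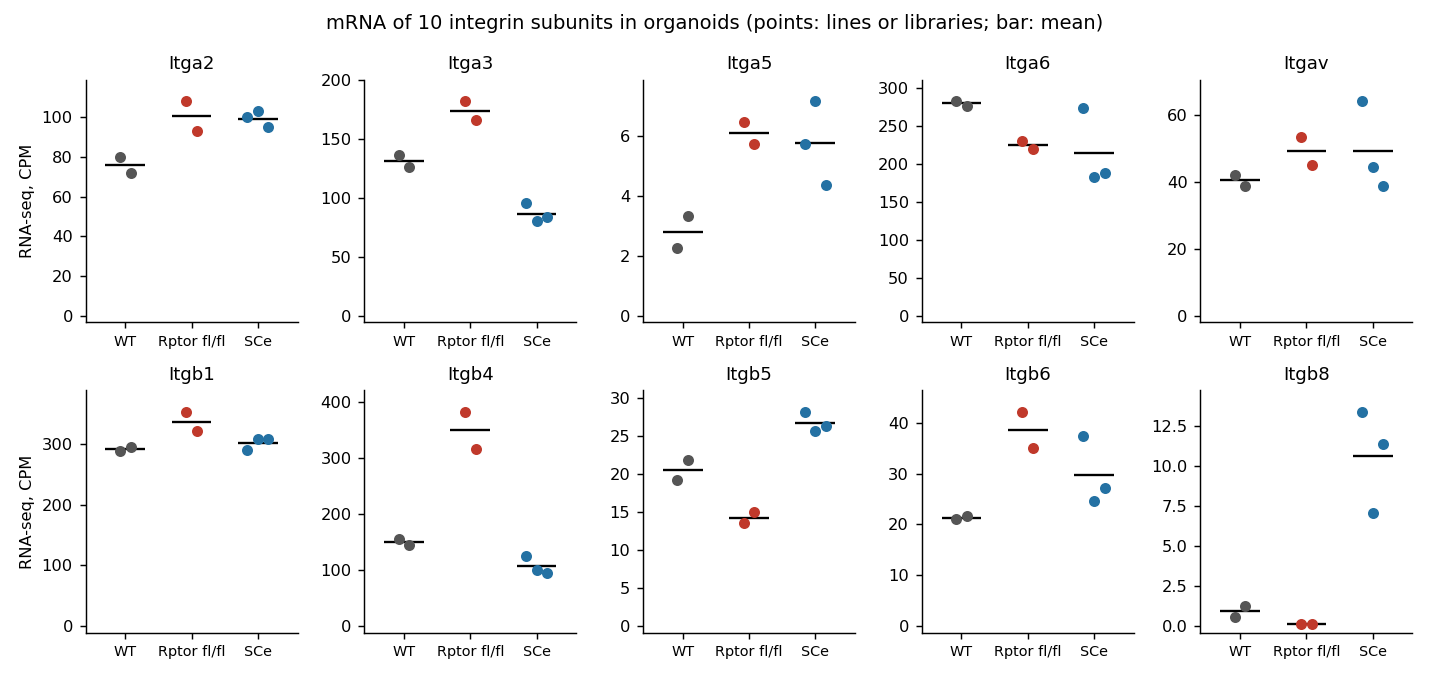
RNA-seq level of each of the 10 subunits in CPM (vertical axes, from 0) in 2 WT lines, 2 Rptor fl/fl lines and 3 SCe libraries. Points are lines or libraries and bars are means. Itgb4 stands at 383 and 317 CPM in Rptor fl/fl lines, above every WT and SCe value, and Itgb8 at 7.11 to 13.4 CPM in SCe, above every other value.

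To ask how loss of Rptor changed the mRNAs, Rptor fl/fl organoids were compared with WT organoids. Expression of 5 of the 10 subunits rose (Itga2, Itga3, Itga5, Itgb4 and Itgb6) and that of 3 fell (Itga6, Itgb5 and Itgb8) at an adjusted p under 0.05 in edgeR's quasi-likelihood test, where 11.6% of the 14131 genes tested were higher and 11% lower. The median log2 change was 0.34 for the 10 subunits and -0.00 for all genes tested. With 2 lines per group the calls were sensitive to single lines. Without the first or the second WT line 3 subunits passed, without the first Rptor fl/fl line 2 and without the second 5, and Itgb4 and Itgb6 passed in each of these 4 fits. A single fit of all RNA-seq groups left 3 past the threshold, namely Itgb4, Itgb5 and Itgb8. Nothing in the labels says whether the lines came from separate animals, although the study calls them biological replicates. The p-values measure the spread between these lines. Cell type markers differed in the same comparison. Of Paneth cell markers 4 of 5 were lower in Rptor fl/fl (743 to 1566 CPM against 4128 to 4915 in WT), of stem cell markers 3 of 4 were lower (727 to 1948 against 3373 to 4946 CPM) and of goblet cell markers 3 of 5 were higher (2816 to 3874 against 1555 to 1654 CPM). Their part in the integrin results was not tested.

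In the second comparison, which shares the WT lines with the first, SCe organoids were set against WT organoids. Here 4 subunits rose (Itga2, Itga5, Itgb5 and Itgb8) and 2 fell (Itga3 and Itgb4), where 22.4% of 14925 genes were higher and 19.9% lower. The median was 0.35 for the subunits and 0.02 for all genes. Without either WT line 1 subunit passed, which was Itgb8, without the second or the third SCe library 3, and without the first SCe library 8. Over all genes, 6309 passed with all libraries, 4369 without the second SCe library and 4042 without the third. Without the first SCe library 31.9% of 14855 genes were higher and 32.2% lower. The log2 changes of the 6 were then 0.40 (Itga2), 1.06 (Itga5), 0.36 (Itgb5), 3.32 (Itgb8), -0.66 (Itga3) and -0.59 (Itgb4), at adjusted p values of 0.0306 or less. Of goblet cell markers 4 of 5 were lower in SCe, of enteroendocrine markers 4 of 5 and of epithelial markers 4 of 8, and of 4 tested markers of stroma and endothelium 3 were higher. Of stem cell markers 2 of 4 were lower and none higher, with sums of 695 to 1288 CPM in SCe and 3373 to 4946 CPM in WT. Among the 4, Lgr5 did not follow the sum, at 219 to 337 CPM in SCe and 197 to 215 CPM in WT. The part of these markers was not tested. The third comparison set Rptor fl/fl directly against SCe organoids, using the libraries of the other two. Itga3 and Itgb4 were higher and Itgb5 and Itgb8 lower in Rptor fl/fl organoids, where 21% of 15103 genes were higher and 21.8% lower. The median was 0.08 for the subunits and -0.01 for all genes. These 4 calls held in every alternative that was run. Without the first SCe library they were 1.09, 1.83, -0.86 and -5.79, and Itga6 and Itgb6 passed as well. In that fit 30.6% of 14953 genes were higher and 30.2% lower. Of goblet cell markers 5 of 5 were higher in Rptor fl/fl than in SCe organoids, of epithelial markers 4 of 8 and of enteroendocrine markers 3 of 5. Of stem cell markers 2 of 4 were higher and 2 lower, and of 4 tested markers of stroma and endothelium 3 were lower. Their part was not tested.

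**Figure D2:**
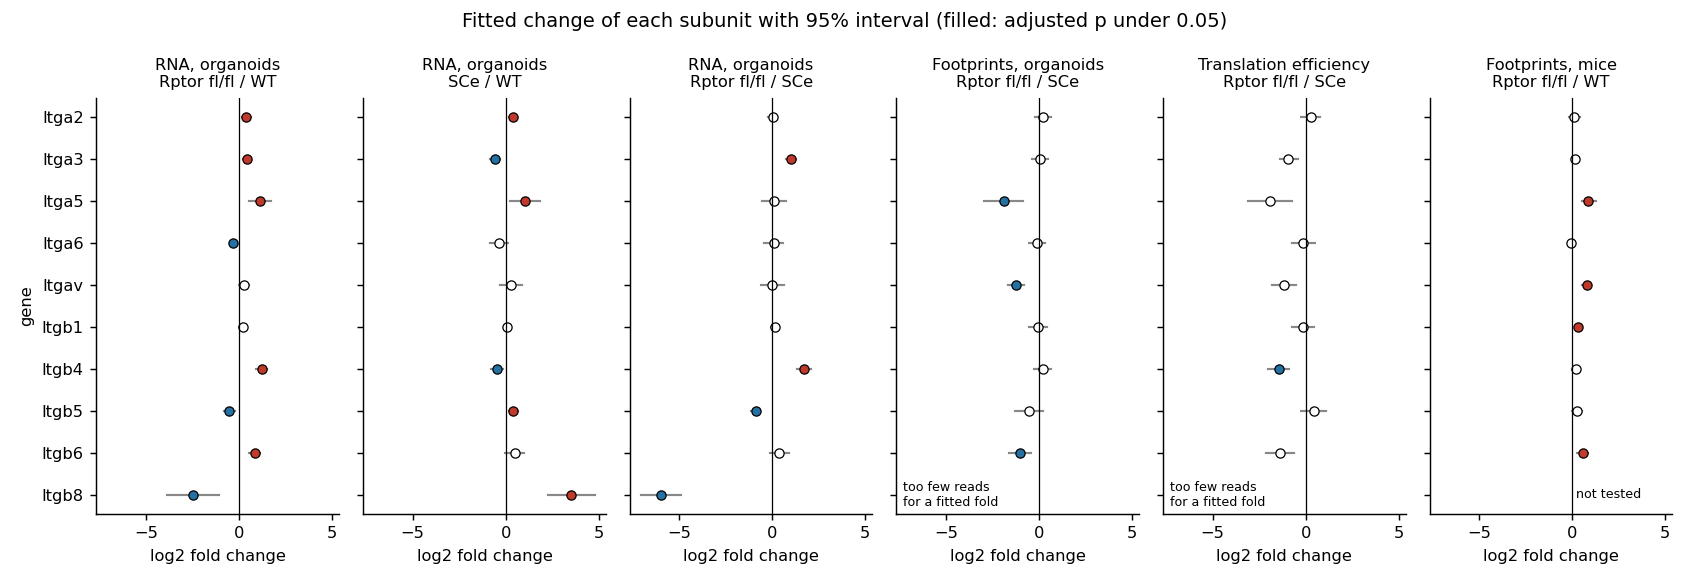
Fitted log2 fold change (horizontal axes) of each of the 10 subunits in 6 comparisons, with lines for the 95% interval and filled points for an adjusted p under 0.05 (red higher, blue lower). Itgb8 is left out where a group had at most 1 read and was not tested in mice. Itgb4 passes upwards in both RNA-seq comparisons of Rptor fl/fl organoids, and Itga5, Itgav, Itgb1 and Itgb6 pass upwards in mice.

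The laminin receptor subunits did not move as a group. Itgb4 (chr11:115974709-116008412, + strand), the β chain of the hemidesmosome integrin, had 156 and 145 CPM in WT lines, 383 and 317 in Rptor fl/fl lines, and 126, 101 and 95.9 in the SCe libraries. All Rptor fl/fl values exceeded all WT values, and these exceeded all SCe values. Itgb4 was 2.33-fold higher in Rptor fl/fl than in WT organoids (log2 change 1.22 ± 0.11, SE, adjusted p = 0.0107) and 3.26-fold higher than in SCe organoids (1.70 ± 0.15, adjusted p = 0.002). Between SCe and WT organoids the log2 change was -0.46 ± 0.13 (adjusted p = 0.0425). The latter call was lost without either WT line or without the second or the third SCe library, at adjusted p values between 0.104 and 0.192.

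Itga6 (chr2:71745616-71858416, + strand), the α chain that pairs with β4, went the other way in Rptor fl/fl organoids. It had 283 and 277 CPM in WT lines, 231 and 220 in Rptor fl/fl lines and 274, 183 and 188 in the SCe libraries. It was 1.24-fold lower in Rptor fl/fl than in WT organoids (log2 change -0.31 ± 0.06, adjusted p = 0.0316), and this call was lost without any 1 of the 4 lines (adjusted p 0.0551 to 0.167). SCe did not differ from WT past the threshold (-0.36 ± 0.20, adjusted p = 0.196) with all 3 libraries, but did without the first SCe library (-0.58, adjusted p = 4.62e-04). Itga3 (chr11:95044474-95076801, - strand), which with β1 forms another laminin receptor, had 136 and 126 CPM in WT, 182 and 166 in Rptor fl/fl, and 95.9, 80.2 and 83.4 in SCe organoids, with no overlap between any groups. Its log2 change was 0.41 ± 0.08 in Rptor fl/fl against WT (adjusted p = 0.0266), -0.58 ± 0.10 in SCe against WT (adjusted p = 0.00949) and 1.01 ± 0.10 in Rptor fl/fl against SCe organoids (adjusted p = 0.0025). The first lost its call without either WT line or the first Rptor fl/fl line (adjusted p 0.0679 to 0.136) and the second without either WT line (0.0556 and 0.0749).

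Itgb1 did not pass in RNA-seq, whereas the collagen-binding chain Itga2 rose in both Rptor fl/fl and SCe organoids. Itgb1 (chr8:128685654-128733200, + strand) mRNA was 288 and 295 CPM in WT, 352 and 320 in Rptor fl/fl, and 289, 308 and 307 in SCe organoids. None of its RNA comparisons passed, with a log2 change of 0.20 ± 0.08 against WT in Rptor fl/fl (95% interval 0.01 to 0.40, adjusted p = 0.117) and 0.07 ± 0.07 in SCe organoids (-0.11 to 0.25, adjusted p = 0.467). Itga2 (chr13:114833081-114932100, - strand) mRNA was 80 and 71.8 CPM in WT, 108 and 92.8 in Rptor fl/fl, and 100, 103 and 94.8 in SCe organoids. It was higher than in WT in both, by 0.40 ± 0.10 (adjusted p = 0.0488) and 0.41 ± 0.08 (adjusted p = 0.0142) on the log2 scale, and the groups Rptor fl/fl and SCe overlapped (0.02, interval -0.22 to 0.25, adjusted p = 0.903). Both calls of Itga2 were lost without either WT line, and that of Rptor fl/fl also without its first line (adjusted p 0.0608 to 0.189). The latter was also lost with RLE normalisation (0.0522), with an offset for effective length (0.0535) and in the single fit of all groups (0.0551).

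Itga5 (chr15:103344286-103366763, - strand), the α chain of the fibronectin receptor, was scarce. It had 2.27 and 3.33 CPM in WT, 6.44 and 5.72 in Rptor fl/fl, and 5.72, 7.15 and 4.37 in SCe organoids. The lowest Rptor fl/fl and SCe values lay above the highest WT value. Itga5 was 2.17-fold higher in Rptor fl/fl (log2 change 1.12 ± 0.23, adjusted p = 0.0335) and 2.08-fold higher in SCe (1.06 ± 0.31, adjusted p = 0.0456) than in WT organoids, with no call between Rptor fl/fl and SCe (0.08 ± 0.25, interval -0.56 to 0.73, adjusted p = 0.816). Without the first WT line or either Rptor fl/fl line the first call was lost (adjusted p 0.0677 to 0.103), and without either WT line or the second or the third SCe library the second (0.0562 to 0.229), which was also lost with no count filter (0.0513).

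The αv group split. Itgav (chr2:83724397-83806916, + strand) mRNA was 42.1 and 38.7 CPM in WT, 53.4 and 45.1 in Rptor fl/fl, and 64.1, 44.4 and 38.7 in SCe organoids, and no comparison passed (log2 change 0.29 ± 0.11 in Rptor fl/fl, adjusted p = 0.118, and 0.30 ± 0.23 in SCe against WT, adjusted p = 0.337). Without the first SCe library the latter was 0.06 (adjusted p = 0.59). It passed in Rptor fl/fl against WT only without the second Rptor fl/fl line (0.42, adjusted p = 0.0494) among the fits that left out a line. Itgb6 (chr2:60598292-60722643, - strand), whose dimer with αv binds latent TGFβ, had 21 and 21.7 CPM in WT, 42.1 and 35.1 in Rptor fl/fl, and 37.4, 24.7 and 27.1 in SCe organoids. It was 1.81-fold higher in Rptor fl/fl than in WT organoids (0.85 ± 0.11, adjusted p = 0.0165). Against WT, Itgb6 in SCe organoids had a log2 change of 0.49 ± 0.20 (adjusted p = 0.0985) with all libraries and 0.29 (adjusted p = 0.0178) without the first. Between Rptor fl/fl and SCe organoids it changed from 0.38 ± 0.20 (adjusted p = 0.188) to 0.57 (adjusted p = 0.00701) without that library.

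Itgb5 (chr16:33829665-33949338, + strand), the vitronectin-binding partner of αv, fell in Rptor fl/fl organoids. It had 19.2 and 21.9 CPM in WT, 13.6 and 15 in Rptor fl/fl, and 28.2, 25.7 and 26.3 in SCe organoids. The 3 groups did not overlap. It was 1.44-fold lower in Rptor fl/fl than in WT (log2 change -0.52 ± 0.11, adjusted p = 0.0336), 1.32-fold higher in SCe than in WT (0.40 ± 0.10, adjusted p = 0.025), and 1.87-fold lower in Rptor fl/fl than in SCe organoids (-0.90 ± 0.10, adjusted p = 0.00308). The call against WT in Rptor fl/fl was lost without any 1 line (adjusted p 0.0653 to 0.17), and that in SCe without either WT line or the second or the third SCe library (0.0615 to 0.178).

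Itgb8 (chr12:119158022-119238802, - strand) had the widest range. Its mRNA was at 0.586 and 1.29 CPM in WT lines, 0.155 and 0.175 CPM in Rptor fl/fl lines, and 13.4, 7.11 and 11.4 CPM in the SCe libraries. These values stand for 95, 18 and 1517 reads per group, and no 2 groups overlapped. Itgb8 was 11.5-fold higher in SCe than in WT organoids (log2 change 3.52 ± 0.50, adjusted p = 0.00598), 5.6-fold lower in Rptor fl/fl than in WT (-2.49 ± 0.53, adjusted p = 0.0355), and 63.4-fold lower in Rptor fl/fl than in SCe organoids (-5.99 ± 0.43, adjusted p = 0.00125). The call between Rptor fl/fl and WT was lost without the second WT line or either Rptor fl/fl line (adjusted p 0.106 to 0.128). Without the second WT line the log2 changes against WT were -1.81 in Rptor fl/fl and 4.18 in SCe organoids. The marker sum of stroma and endothelium was higher in the SCe libraries too (70.1 to 115 CPM), and its part in the Itgb8 result was not tested. In bulk samples fewer cells of a type and less RNA per cell cannot be told apart.

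On the log2(CPM + 0.5) scale, which shortens differences at low levels, the range of the group means was 4.02 for Itgb8, 1.70 for Itgb4, and 0.20 to 1.01 for the other 8 subunits. The genes with the pattern most like that of Itgb8 were sought by the root mean square difference of log2(CPM + 0.5), centred per gene, over the 7 lines and libraries. Among the other subunits the nearest was Itgb5 at 1.45 log2 units. Of all genes tested, the nearest was Bmp6, a secreted TGFβ family ligand, at 0.23, followed by Gdf11, another ligand of that family, and Fam171a2, both at 0.26. Bmp6 had 0.434 and 0.827 CPM in WT, 0.174 and 0.28 in Rptor fl/fl, and 12.4, 7.92 and 8.64 in SCe organoids. These distances are a description over 7 samples that share 3 groups.

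Next, footprints were compared between the Rptor-labelled organoid libraries and SCe organoids. None of the 10 subunits was higher in the Rptor-labelled libraries and 4 were lower (Itga5, Itgav, Itgb6 and Itgb8), where 6.63% of 10817 genes were higher and 9.84% lower. DESeq2 made 4 calls as well, all downwards, and no subunit had a positive change at an unadjusted p under 0.05. The median log2 change was -0.32 for the subunits and -0.02 for all genes, and the former was the same with Itgb8 set to the bound that a floor of 3 reads allows. Cell type markers also differed, with 3 of 8 epithelial, 5 of 5 goblet, 4 of 7 enterocyte and 3 of 4 tested enteroendocrine markers higher in the Rptor-labelled libraries, and the sum of stroma and endothelium at 6.19 to 9.8 CPM there against 143 to 810 CPM in SCe. Their part in these results was not tested.

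Itgav footprints were 27.6, 37.5 and 33.6 CPM in the Rptor-labelled libraries and 67.8, 76.1 and 83.9 CPM in SCe organoids. The groups were far apart, at a 2.31-fold difference (log2 change -1.21 ± 0.19, adjusted p = 0.00428), and the call held without any 1 library. An offset for effective length kept the size (-1.20) but not the call (adjusted p = 0.119). Itgb6 footprints were 20.6, 15.9 and 21.8 against 34.2, 29.9 and 52.7 CPM, 2.05-fold lower in the Rptor-labelled libraries (-1.03 ± 0.26, adjusted p = 0.0282). Without any 1 of these 3 libraries, or without the third SCe library, this call was lost (adjusted p 0.0579 to 0.129), as it was with the length offset (0.0952).

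Itga5 footprints rested on few reads, 15, 11 and 29 in the Rptor-labelled libraries and 11, 17 and 42 in SCe organoids. Scaled to depth these were 2.49, 1.75 and 3.53 against 5.97, 14.5 and 9.71 CPM, without overlap and 3.72-fold apart (log2 change -1.90 ± 0.46, adjusted p = 0.0238). The call was lost without the second SCe library or without any 1 library labelled Rptor fl/fl (adjusted p 0.0618 to 0.0971). The length offset moved the log2 change to -5.04 (adjusted p = 0.0346). Itgb8 had 0, 1 and 0 reads in the Rptor-labelled libraries and 5, 4 and 27 in SCe organoids. The ratio of the summed reads, scaled to depth, was 101 in favour of SCe, with an exact 95% interval of 17 to 4087 that covers counting error only. Without the third SCe library Itgb8 did not pass the count filter. In SCe organoids another 3, 4 and 1 reads fell on its 5′ leader entry, which was counted apart from the coding entry.

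**Figure D3:**
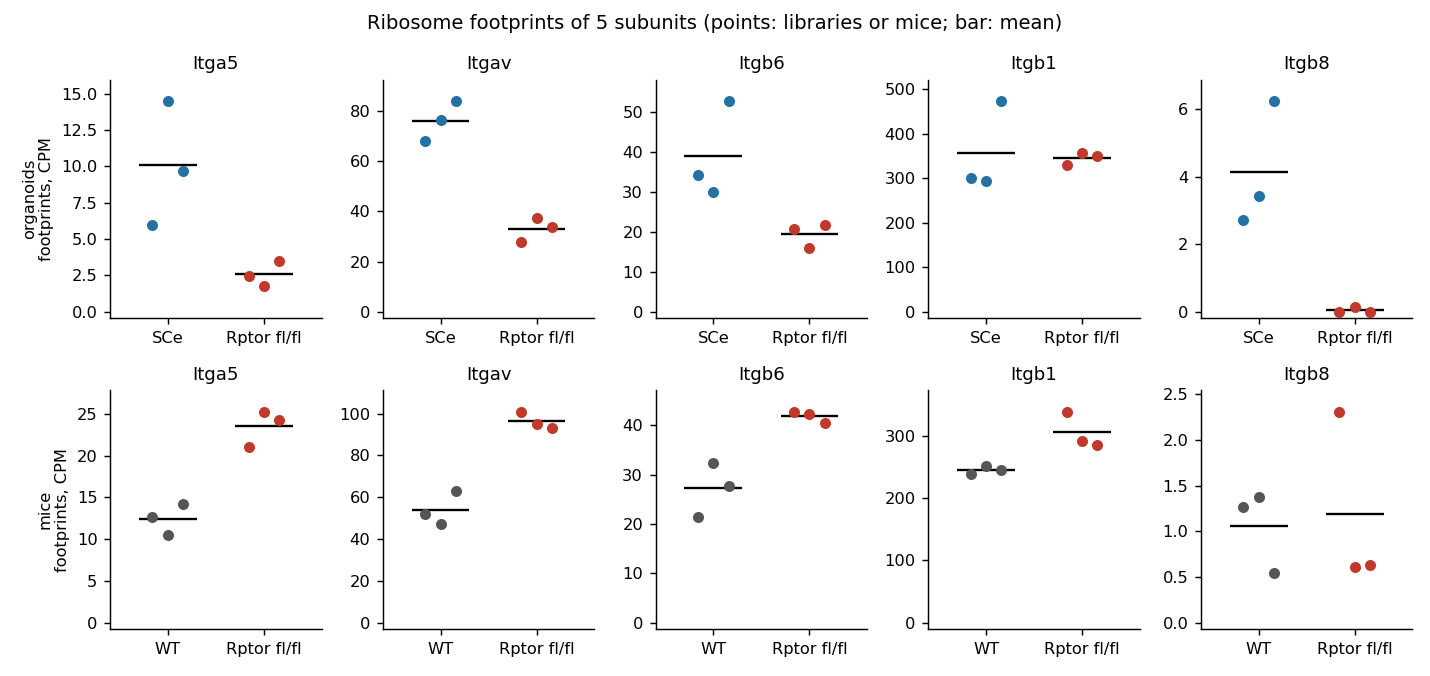
Footprints of 5 subunits in CPM (vertical axes, from 0) in 3 SCe and 3 Rptor-labelled organoid libraries (upper row) and in 3 WT mice and 3 Rptor-labelled mice (lower row). Points are libraries or mice and bars are means. Itgav lies at 27.6 to 37.5 CPM against 67.8 to 83.9 in SCe organoids, and at 93 to 101 CPM against 47 to 63 in WT mice.

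Footprints of the other 6 subunits overlapped between these groups. For Itgb4, the subunit with the largest rise in mRNA, they were 207, 195 and 188 CPM in the Rptor-labelled libraries and 131, 170 and 209 CPM in SCe organoids, a log2 change of 0.21 ± 0.20 (interval -0.24 to 0.65, adjusted p = 0.503). Itga3 footprints were 103, 98.5 and 108 against 80.8, 95.8 and 122 CPM (0.04 ± 0.19, interval -0.38 to 0.46, adjusted p = 0.909). Itgb1, Itga6, Itga2 and Itgb5 had adjusted p values of 0.906, 0.728, 0.439 and 0.315. On 5′ leader entries Itga3 had 10.5% to 14.5% of its reads in the Rptor-labelled libraries and 8.94% to 15.8% in SCe organoids, so that the groups overlapped there too.

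Translation efficiency, the footprints relative to mRNA, was then compared between the same groups as the interaction of assay and group. Of the 10 subunits none was higher and 1, Itgb4, was lower in Rptor fl/fl than in SCe organoids, where 1.12% of 10747 genes were higher and 1.81% lower. For Itgb4 the mRNA was higher and the footprints were not, which gave a log2 change of -1.44 ± 0.26 (2.72-fold, adjusted p = 0.0204). In DESeq2 and at an unadjusted p under 0.05 none was higher either. The median over the subunits was -0.64, or -0.92 over the 9 without Itgb8, whose reads are too few for a ratio, against -0.03 for all genes. Itga3 (-0.92 ± 0.22, adjusted p = 0.0525), Itgav (-1.17 ± 0.28, adjusted p = 0.0541), Itgb6 (-1.37 ± 0.34, adjusted p = 0.058) and Itga5 (-1.93 ± 0.54, adjusted p = 0.0818) had unadjusted p values between 0.0016 and 0.00438 and missed the threshold. DESeq2 called these 4 as well as Itgb4. For Itgb1 the change was -0.15 ± 0.26 (interval -0.73 to 0.43) and for Itga6 -0.14 ± 0.28 (-0.75 to 0.48).

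The call of Itgb4 was lost without any 1 of 7 libraries, namely both Rptor fl/fl RNA-seq lines, the second and the third SCe RNA-seq libraries and the 3 Ribo-seq Rptor-labelled libraries (adjusted p 0.0512 to 0.119), and it held without the others, at -1.56 (adjusted p = 0.0113) without the first SCe RNA-seq library, where 4 subunits passed. In the fit without the first SCe RNA-seq library 2.64% of 10736 genes were higher and 3.94% lower. The labels do not say that RNA-seq and Ribo-seq came from the same organoids. Stem cell markers summed to 727 to 1948 CPM in Rptor fl/fl and 695 to 1288 CPM in SCe RNA-seq, and to 4868 to 5210 and 1426 to 2818 CPM in the respective footprints. In WT RNA-seq they summed to 3373 to 4946 CPM. Lgr5 was at 197 to 215 CPM in WT RNA-seq, beside 206 to 212 CPM in the Rptor-labelled footprints. Paneth markers summed to 4128 to 4915 CPM in WT RNA-seq, 743 to 1566 in Rptor fl/fl RNA-seq and 4517 to 6005 in those footprints. Goblet markers summed to 1555 to 1654, 2816 to 3874 and 2843 to 4497 CPM, in the same order. Levels in both assays are not on the same scale. A change in translation of each mRNA and a difference in state between the organoids of both assays cannot be told apart.

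**Figure D4:**
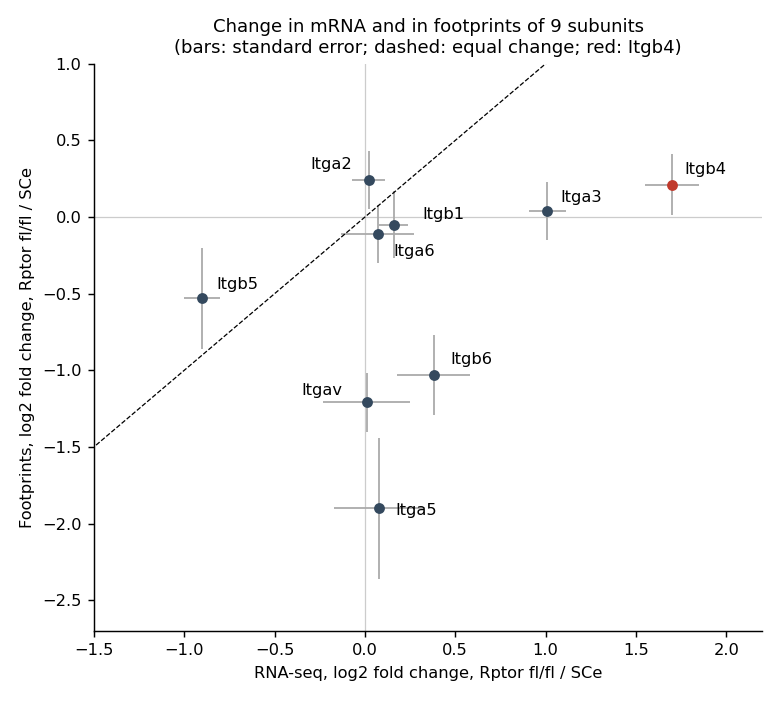
Log2 fold change in RNA-seq (horizontal axis) and in footprints (vertical axis) between organoids named Rptor fl/fl and SCe organoids for 9 subunits, with standard errors as bars. The dashed line marks equal change in both, Itgb8 is left out for want of reads, and Itgb4, in red, is the subunit whose translation efficiency passed the test, at 1.70 in RNA-seq and 0.21 in footprints.

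In mice, footprints of the animals labelled Rptor fl/fl were compared with those of WT animals. Of the 9 subunits tested, 4 were higher in the Rptor-labelled mice (Itga5, Itgav, Itgb1 and Itgb6) and none lower, where 7.47% of 11515 genes were higher and 5.97% lower. DESeq2 made 4 calls too, and no subunit had a negative change at an unadjusted p under 0.05. The median was 0.23 for the subunits and -0.02 for all genes. Itgb8 had 1, 3 and 3 reads in WT mice and 7, 2 and 5 in the Rptor-labelled mice and did not pass the count filter. Without the third WT mouse 2 subunits passed, without another single mouse 3 to 6, and Itga5 and Itgav passed in each of these fits.

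Itgav footprints were 51.8, 47 and 63 CPM in WT mice and 101, 95 and 93 CPM in Rptor-labelled mice. All values of the second group exceeded those of the first, by 1.72-fold (log2 change 0.78 ± 0.11, adjusted p = 2.47e-04). With an offset for effective length the change was 0.26 (adjusted p = 0.448). Between 9.17% and 16.6% of Itgav reads in WT mice and 6.01% to 8.32% in Rptor-labelled mice were assigned to an entry of 261 bases, whose effective length was 25.2 bases. Itga5 had 12.6, 10.5 and 14.2 CPM in WT mice and 21.1, 25.3 and 24.3 CPM in Rptor-labelled mice, without overlap and 1.83-fold higher (0.87 ± 0.17, adjusted p = 0.00337). This call held under every alternative run.

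Itgb6 footprints were 21.5, 32.4 and 27.8 CPM in WT and 42.8, 42.3 and 40.4 CPM in Rptor-labelled mice, 1.47-fold higher (0.56 ± 0.14, adjusted p = 0.014). Itgb1 footprints were 238, 251 and 245 against 339, 291 and 286 CPM, 1.24-fold higher (0.31 ± 0.08, adjusted p = 0.0218). Both sets were free of overlap, but neither call held throughout. That of Itgb6 was lost without the third WT mouse or the second Rptor-labelled mouse (adjusted p 0.103 and 0.0537), that of Itgb1 without any 1 WT mouse (0.0604 to 0.0888), and both with an offset for effective length (0.0903 and 0.474).

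The chains of α6β4 and the α3 chain did not pass in mice. Itgb4 had 263, 263 and 263 CPM in WT and 267, 321 and 319 CPM in Rptor-labelled mice (0.20 ± 0.08, adjusted p = 0.131), and Itga3 had 192, 210 and 220 against 208, 253 and 246 CPM (0.17 ± 0.09, adjusted p = 0.252). Without the first Rptor-labelled mouse both passed, at 0.29 (adjusted p = 0.00792) and 0.25 (adjusted p = 0.0367). Itga6 overlapped, at 151 to 159 CPM in WT and 141 to 159 CPM in Rptor-labelled mice (-0.06, interval -0.24 to 0.12, adjusted p = 0.726). Itga2 (adjusted p = 0.703) and Itgb5 (adjusted p = 0.275) overlapped between the groups.

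These footprints were not those of stem cells alone. Enterocyte markers summed to 45730 to 47213 CPM in WT mice and 51534 to 55878 CPM in Rptor-labelled mice, stroma and endothelium to 895 to 932 and 1082 to 1350 CPM (7 of 7 detected, 4 of 7 higher), pancreatic acinar markers to 2897 to 6742 and 5774 to 7086 CPM (10 of 10 detected, 1 higher) and smooth muscle to 1335 to 1481 and 1267 to 1445 CPM (6 of 6 detected, 1 higher and 1 lower). Immune markers summed to 7261 to 8373 CPM in WT and 8190 to 8833 CPM in Rptor-labelled mice (6 of 6 detected, none higher and 1 lower). Among epithelial cells, Paneth markers summed to 7171 to 7846 CPM in WT and 3759 to 5047 CPM in Rptor-labelled mice (3 of 4 lower), goblet markers to 21438 to 21825 and 25094 to 28074 CPM (3 of 5 higher) and stem cell markers to 498 to 537 and 319 to 490 CPM (2 of 4 lower). Integrins are also made by these cells, and the part of cell composition in the mouse results was not tested.

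Itga6 and Itgb5 were further resolved by coding end in RNA-seq. The share of Itga6 reads on end B was 61.8% and 57.4% in WT lines, 52.6% and 54.6% in Rptor fl/fl lines, and 70.7%, 71.1% and 65.7% in the SCe libraries. The remaining reads were on end A, and the 3 groups did not overlap. For Itgb5 the share on transcripts that end with the NPxY codons shown above (Itgb5-202 and Itgb5-207) was 59.4% and 65.8% in WT, 85.4% and 77.9% in Rptor fl/fl, and 55.7%, 55.2% and 69.3% in SCe organoids. Itgb5-201, whose coding sequence of 816 codons holds no NPxY motif, took the rest, so that its share was 14.6% and 22.1% in Rptor fl/fl lines and 30.7% or more elsewhere. These shares come from the model by which Salmon divides reads among transcripts that share sequence, and they were not tested.

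**Figure D5:**
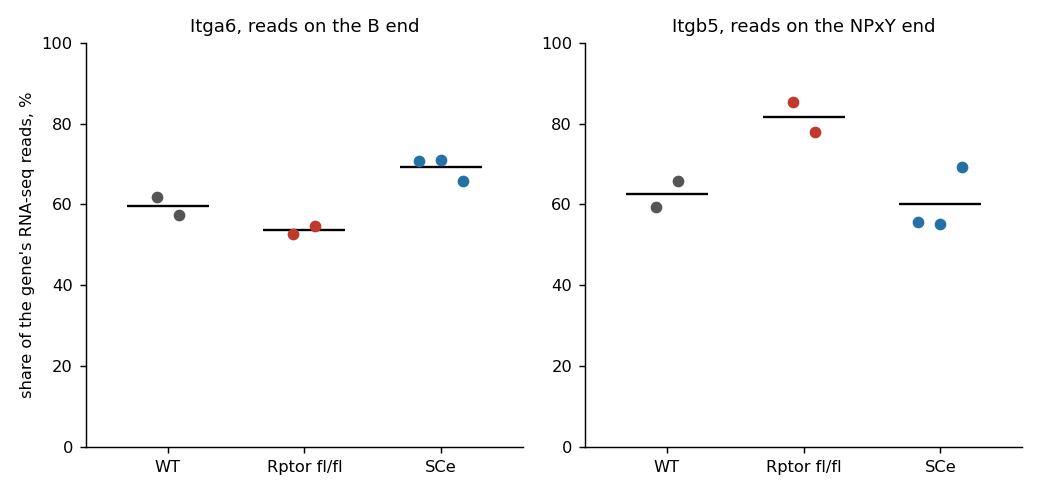
Share of the RNA-seq reads of Itga6 on end B (left) and of Itgb5 on transcripts with the NPxY end (right), in percent (vertical axes, 0 to 100), in 2 WT lines, 2 Rptor fl/fl lines and 3 SCe libraries. Points are lines or libraries and bars are means. Itga6 end B is lowest in Rptor fl/fl lines, at 52.6% and 54.6%, and the Itgb5 NPxY end is highest there, at 85.4% and 77.9%.

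The matrix ligands of these receptors were examined as a list of 23 genes. In RNA-seq, 13 of the 18 tested rose and none fell in Rptor fl/fl against WT organoids, with a median log2 change of 1.73 (DESeq2 called 13 and 0, and none was lower at an unadjusted p under 0.05), where 11.6% of all genes rose and 11% fell. In SCe against WT organoids 11 of 17 rose and 2 fell, with a median of 1.82, where 22.4% of all genes rose and 19.9% fell. Without the first SCe library 12 of 16 rose and 2 fell, beside 31.9% and 32.2% of all genes. Fn1, which encodes fibronectin, the ligand of α5β1, was at 0.151 to 0.202 CPM (8 to 10 reads) in WT, 12.9 to 17.6 in Rptor fl/fl and 37.8 to 80.7 CPM in SCe organoids. Lama3, a laminin chain bound by α3β1 and α6β4, rose from 7.29 to 8.49 CPM in WT to 24 to 26.2 CPM in Rptor fl/fl (log2 change 1.67 ± 0.12, adjusted p = 0.00871), and Lamb2, another laminin chain, from 7.89 to 8.65 to 29.9 to 31.5 CPM (1.89 ± 0.09, adjusted p = 0.00516). Between Rptor fl/fl and SCe organoids 7 of 19 ligands were higher and 7 lower (median 0.66), beside 21% and 21.8% of all genes. These counts were 9 and 8 without the first SCe library, beside 30.6% and 30.2% of all genes. The collagen IV chains Col4a1 and Col4a2 had 40.1 to 75.1 and 36.7 to 71.2 CPM in Rptor fl/fl and at most 1 CPM in SCe organoids. Markers of stroma and endothelium summed to 70.1 to 115 CPM in SCe, at most 3.71 in WT and at most 3.34 in Rptor fl/fl RNA-seq. The ligand list and these markers share a collagen I chain. Their part in the ligand results was not tested.

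In organoid footprints 7 of 10 ligands were lower in the Rptor-labelled libraries and none higher (median -2.44), and 4 of 10 were lower and none higher in translation efficiency (median -1.66), or 6 without the first SCe RNA-seq library. Of all genes 9.84% were lower in footprints and 1.81% in translation efficiency, or 3.94% without the first SCe RNA-seq library. In both, 8 were lower and none higher at an unadjusted p under 0.05, and DESeq2 called 7 and 6 lower and none higher. Lama5 footprints were 25 to 29.4 CPM in these libraries and 105 to 169 CPM in SCe organoids (log2 change -2.37 ± 0.21, adjusted p = 5.94e-04). Fn1 footprints were at 0 to 0.635 CPM (0 to 4 reads) against 52.1 to 216 CPM, although the Rptor fl/fl RNA-seq had 12.9 CPM or more. In mice 14 of 20 ligands were higher and none lower (median 0.53), where 7.47% of all genes were higher, with 10 and none by DESeq2 and none lower at an unadjusted p under 0.05. They were led by Spp1, which encodes the αv ligand osteopontin, at 71.2 to 83 CPM in Rptor-labelled mice and 3.11 to 8.85 CPM in WT (4.40 ± 0.21, adjusted p = 1.83e-09). Fn1 was next (0.97 ± 0.08, adjusted p = 3.23e-07), followed by Lama3 (0.88 ± 0.10, adjusted p = 3.26e-05). Stroma and endothelium markers summed to 143 to 810 CPM in SCe and 6.19 to 9.8 CPM in Rptor-labelled organoid footprints. In mice they summed to 895 to 932 CPM in WT and 1082 to 1350 CPM in Rptor-labelled animals. Their part in these ligand results was not tested. For ligands, too, translation and the state of the organoids cannot be told apart.

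The partners of α6β4 in hemidesmosomes formed a list of 6 genes. Plec, which encodes plectin, the linker between β4 and keratin, had 233 to 285 CPM in WT, 441 to 447 in Rptor fl/fl and 113 to 139 CPM in SCe organoids, in the same order as Itgb4. It was the single member of 4 tested that rose in Rptor fl/fl against WT (0.78 ± 0.11, adjusted p = 0.0178), with a list median of 0.14 and 11.6% of all genes higher. In SCe against WT organoids 3 of 4 fell (median -1.18), namely Plec, Dst and the keratin Krt14, which had 33 reads in WT and 3 in SCe organoids. Of all genes 19.9% fell. Without the first SCe library 3 of the 4 partners fell as well, beside 32.2% of all genes. Krt14 marks basal cells of stratified epithelia. Against SCe, Plec (1.81 ± 0.11, adjusted p = 0.00107) and Dst, which encodes dystonin (1.63 ± 0.25, adjusted p = 0.00697), were higher in Rptor fl/fl organoids, out of 3 tested (median 1.63), beside 21% of all genes. With the first SCe library left out 3 of 3 were higher, beside 30.6% of all genes. No partner passed in organoid footprints (1 of 3 was higher at an unadjusted p under 0.05, and none by DESeq2) or in translation efficiency (1 of 3 was lower at an unadjusted p under 0.05, and 1 by DESeq2). In Rptor-labelled mice Cd151, a tetraspanin partner of laminin-binding integrins, and Krt14 were higher and Dst lower, out of 4 (median 0.16), beside 7.47% of all genes higher and 5.97% lower. DESeq2 called 1 higher and 1 lower. Krt14 overlapped between the groups, at 4.2 to 11.4 CPM (9 to 23 reads) in WT and 11 to 13.7 CPM in Rptor-labelled mice (adjusted p = 0.0431 in edgeR).

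Of 39 adaptors and kinases of focal adhesions, 10 of 34 tested rose and 1 fell in RNA-seq of Rptor fl/fl against WT organoids (median 0.22), beside 11.6% and 11% of all genes. In SCe against WT organoids 7 of 36 rose, a share of 19.4% that is near the 22.4% of all genes, and 13 fell, or 36.1% beside 19.9% (median -0.20). Without the first SCe library 10 of 35 rose and 19 fell, beside 31.9% and 32.2% of all genes. In Rptor fl/fl against SCe organoids 20 of 38 were higher and 5 lower (median 0.55), beside 21% and 21.8% of all genes. These counts were 23 and 7 without the first SCe library, beside 30.6% and 30.2% of all genes. Among those higher in the last comparison were Vasp and Pxn, which encode the actin regulator VASP and paxillin, with log2 changes of 1.29 ± 0.07 and 1.07 ± 0.07 (adjusted p 0.00105 and 0.00107). In organoid footprints 4 of 31 were higher and 3 lower in the Rptor-labelled libraries (median 0.08), beside 6.63% and 9.84% of all genes, and in translation efficiency 2 of 31 were lower (median -0.32), beside 1.81% of all genes, and none was higher, also by DESeq2 and at an unadjusted p under 0.05. In mice 3 of 38 were higher and 3 lower (median 0.02), near the 7.47% and 5.97% of all genes.

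The 17 other integrin subunits were mostly near the limit of detection in organoids. Itga1, a collagen-binding partner of β1, was the one that rose in Rptor fl/fl against WT organoids among 10 tested (33.7 to 40.8 CPM in WT, 50.6 to 59.3 in Rptor fl/fl, log2 change 0.56 ± 0.13, adjusted p = 0.0425). It was also higher than in SCe organoids (0.39 ± 0.10, adjusted p = 0.033), among 10. The list medians were 0.38 and -0.48, with 1 lower in each, so that the share of the list was near the 11.6% and 11% of all genes in the first comparison and below the 21% and 21.8% in the second. Without the first SCe library 1 was higher and 3 were lower in the latter, beside 30.6% and 30.2% of all genes. In SCe against WT organoids 3 of 11 rose and 1 fell (median 0.71), beside 22.4% and 19.9% of all genes. These counts were 4 and 1 without the first SCe library, beside 31.9% and 32.2% of all genes. Itga7, a laminin-binding chain, was higher in SCe with all libraries (1.65 ± 0.21, adjusted p = 0.00468). In organoid footprints 1 of 2 tested, Itga7, was lower in the Rptor-labelled libraries (-2.85 ± 0.81, adjusted p = 0.0446), beside 9.84% of all genes. It rested on few reads, 0 to 11 in these libraries and 6 to 30 in SCe organoids. Neither of the 2 passed in translation efficiency by edgeR, by DESeq2 or at an unadjusted p under 0.05. By edgeR 1.12% of all genes were higher there and 1.81% lower. In mice 4 of 14 were higher (2 by DESeq2) and none lower (median 0.25), beside 7.47% and 5.97% of all genes, with none lower at an unadjusted p under 0.05. Among them was Itgam, a chain of leukocytes, at 21.5 to 24.7 CPM in WT and 36.3 to 42.8 CPM in Rptor-labelled mice (0.71 ± 0.14, adjusted p = 0.00281), and Itga1 with a log2 change of 0.55 ± 0.13 (adjusted p = 0.00933).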

How the data were processed

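RNA-seq was made from organoids (WT, SCe and Rptor fl/fl), and Ribo-seq from organoids and from small intestine of mice. The authors trimmed reads and quantified them against GENCODE vM21 transcripts (cutadapt 1.18, Salmon 1.1.0 and genome build mm10 in the submitters' processing notes). They deposited, per transcript, estimated counts and TPM values with effective lengths, and organoid footprints were quantified on coding sequences with flanks. Another deposited table, not used here, holds the authors' dispersions, p-values, translation efficiencies and log2 changes. The deposited estimated counts were summed per gene, technical libraries were summed per organoid line, and sums were rounded. Separate 5′ leader entries occurred in organoid Ribo-seq only and were left out. In the mouse files 59.39% of entries had the length of the 5′ leader and coding sequence plus 34 bases. Mouse counts can therefore include footprints on leaders. edgeR 4.0.16 in R 4.3.3 fitted its quasi-likelihood test per comparison after its expression filter and TMM normalisation, with Benjamini-Hochberg adjustment over all genes tested (threshold 0.05). For translation efficiency, the term tested was assay by group. CPM are TMM-scaled. Alternatives were DESeq2 1.42.0, RLE normalisation, no filter, an effective length offset, a replicate block, technical libraries kept apart, a single fit of all RNA-seq groups and leaving out each replicate. The counts of the further lists without the first SCe RNA-seq library were added after seeing the data. The edgeR fit was tested on simulated data with 200 changed genes per comparison. In RNA-seq a true log2 change of 1 was called in 83.8% (Rptor fl/fl against WT), 31% (SCe against WT) and 16.3% (Rptor fl/fl against SCe) of such genes. In organoid footprints it was called in 40.8%, in translation efficiency in 10% and in mice in 89.9%. A missed threshold is therefore weak evidence of no change where these shares are low. All 10 subunits are named, and of each further list at most the 3 genes with the smallest adjusted p per comparison, of which 1 is not reported here. Likeness used log2(CPM + 0.5). Members and lists were chosen with earlier results of these data known. Counting intervals and floors cover counting error only.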

Additional observations from a re-analysis of the deposited data

Results flagged for a closer look

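Of 20 groups of 4 or more values tested for a sample far from the others, 1 stood out, and chance gives about 1 in 20. Itgav in the 4 technical RNA-seq libraries of WT organoids was at 35.1 CPM in the second library of the second line and at 40.7 to 41.6 CPM in the other 3, so that the gap was 0.852 of the whole range, above Dixon's critical value. Both libraries of that line were summed for the comparisons, in which Itgav did not pass.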

How the results depend on the processing

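The number of subunits called changed by more than 1.5 times under the alternatives given here, and the cause was not tested. A single fit of all RNA-seq groups called 3 in Rptor fl/fl against WT organoids. The length offset called 2 in organoid footprints and 1 in mice. In translation efficiency DESeq2 and technical libraries kept apart each called 5, and RLE normalisation 2. Without single libraries the counts ranged from 2 to 5 (Rptor fl/fl against WT), 1 to 8 (SCe against WT), 4 to 6 (Rptor fl/fl against SCe), 2 to 4 (organoid footprints), 0 to 5 (translation efficiency) and 2 to 6 (mice). Small log2 changes that missed the threshold turned sign. In RNA-seq of Rptor fl/fl against SCe organoids these were Itga2 with the length offset (-0.05) and technical libraries kept apart (-0.02), and Itgav with the latter (-0.02). With the length offset they were Itga3 (-0.08) and Itgb1 (0.34) in organoid footprints and Itgb1 in translation efficiency (0.24). Without single libraries, Itga2 ranged from -0.09 to 0.13, Itga5 from -0.09 to 0.27, Itga6 from -0.04 to 0.28 and Itgav from -0.14 to 0.24 in that RNA-seq comparison, Itga3 from -0.10 to 0.24, Itga6 from -0.25 to 0.09 and Itgb1 from -0.16 to 0.23 in organoid footprints, Itga6 from -0.34 to 0.07, Itgb1 from -0.27 to 0.12 and Itgb8 from -3.96 to 0.32 in translation efficiency, and Itga2 from -0.00 to 0.26 in mice.

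For paired samples, the methods of the study mention further Rptor fl/fl animals with induction in vitro. They do not say which libraries came from that set. The sources used here do not say that a replicate number marks a shared animal or day, and the numbers were not taken as pairs. Deviations of same-numbered samples correlated at 0.20 to 0.38 in RNA-seq, where 2 pairs cannot settle it, and at -0.05 to 0.04 in Ribo-seq. A replicate block called 9 subunits in Rptor fl/fl against WT, 2 in SCe against WT, 4 in Rptor fl/fl against SCe, 3 in organoid footprints, 0 in translation efficiency and 4 in mice, and turned Itga2 (-0.02), Itga5 (-0.07) and Itgav (-0.12) in Rptor fl/fl against SCe organoids.

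The order of subunits by level depended on the length used. Against effective length, entry length moved 5 subunits in footprints labelled Rptor fl/fl, 4 in SCe footprints, 3 in mice labelled Rptor fl/fl and 7 in WT mice, and the longest entry moved 3, 6, 5 and 7, and 2 in SCe RNA-seq. Organoid Ribo-seq libraries of 1106178 to 8257457 reads limit Itga5 and Itgb8.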
